A study of Mus musculus with 9 samples.

Results

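The genes described here are the nuclear genes of oxidative phosphorylation, chosen by gene symbol. They are the protein-coding genes whose symbols begin with Nduf followed by a, b, c, s or v and a number, with Uqcr, with Atp5, or with Cox4 to Cox8 and a letter a to c, together with Cyc1 and the Sdha to Sdhd genes, that had 10 or more counts in 3 or more libraries. Of 47728 genes in the files, 79 met this rule: 36 of complex I, 4 of complex II, 9 of complex III, 13 of complex IV and 17 of ATP synthase. Another 4 protein-coding genes matched by symbol but not by count. Cox7b2 and Cox8c had 0 counts in every library, Cox6b2 had 1 count in 1 library, and Ndufa4l2 had 0 to 10 counts. The symbols are not a perfect guide to the complexes: Ndufa4 was grouped with complex I by its name although its product is now placed in complex IV, Atp5s is not a structural subunit, and Cox7a2l is a supercomplex assembly factor.

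The 9 libraries came from C2C12 cells, mouse myoblasts kept as a line, which form myotubes once serum is lowered. Cells carried a Cry1 knockdown, a Cry2 knockdown or a control, and each genotype gave 1 library at day 0, 1 at day 3 and 1 at day 5 of differentiation. All groups were grown in 10% fetal bovine serum and then differentiated from day 0 in 5% horse serum with an insulin, transferrin and selenium supplement. How the knockdowns were made, and whether each came from a clone or a pool, was not stated in the labels.

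The oxidative phosphorylation system sits in the inner mitochondrial membrane. Complexes I and II pass electrons from NADH and succinate to ubiquinone, complex III passes them to cytochrome c, and complex IV passes them to oxygen, while complexes I, III and IV pump protons that drive ATP synthase. Most subunits are nuclear genes and a few are encoded in the mitochondrial genome. Complex IV has subunits with a heart and skeletal muscle isoform and a widely expressed one, of which Cox6a2, Cox7a1 and Cox8b are the muscle forms in the mouse.

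Library totals ran from 4731020 to 6412279 counts, so that 3 counts, the limit a count of 0 allows, were 0.440 to 0.635 CPM (counts scaled to library size after normalisation by the trimmed mean of M values). Cry1 was at 6.65 to 8.30 CPM in the Cry1 knockdown against 15.8 to 20.5 in the control, and Cry2 at 7.27 to 16.6 CPM in the Cry2 knockdown against 19.2 to 48.9. The summed myoblast and myotube markers were 2066 to 2637 CPM at day 0, 14053 to 18911 at day 3 and 18587 to 20348 at day 5. Des alone was 1634 to 1777 CPM at day 0. Myog was then at 58.7, 180 and 35.4 CPM in the control, Cry1 knockdown and Cry2 knockdown, and Acta1 at 117, 364 and 72.5. Myod1, Mymk, Myh3 and Ckm were also highest in the Cry1 knockdown at day 0, while Des and Myf5 were lowest there. Among 5 brown adipocyte markers, a cell type that also uses Cox7a1 and Cox8b, Ucp1 and Prdm16 were at 0 and Dio2 was the member that passed the count filter. The sum of those 5 was 10.6 to 13.2 CPM at day 0, 46.7 to 58.0 at day 3 and 95.5 to 163 at day 5. The 5 cardiomyocyte markers summed to 3.23 to 4.89 CPM at day 0, 12.3 to 37.7 at day 3 and 26.6 to 64.3 at day 5, with Nppa at 0 and Myh6 and Tnni3 called higher at day 3 by edgeR. The 4 fibroblast markers summed to 3529 to 4508 CPM at day 0, 7014 to 10377 at day 3 and 10092 to 15649 at day 5. The 4 white adipocyte, 4 endothelial and blood, and 3 osteoblast markers summed to at most 23.3, 2.41 and 0.831 CPM, and Adipoq was at 0. The part of such cells in the results was not tested, and more cells of a type cannot be told apart from more RNA per cell. The day 0 library of the Cry2 knockdown stood apart in 6 mitochondrially encoded genes: mt-Co2 had 3784 counts there and 28 to 61 elsewhere, and mt-Co3, mt-Atp6, mt-Atp8, mt-Nd4l and mt-Nd3 were likewise high there. None of these is a nuclear gene, and counts without that library are given below.

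The nuclear subunit genes took 0.982% to 1.34% of all counts. Their summed level was 9804 to 10144 CPM in the 3 libraries of day 0, 12573 to 13451 at day 3 and 10300.0 to 11239 at day 5. The day 3 libraries were above all others. On this scale the day 5 libraries were above those of day 0, whereas as a share of counts the libraries of day 0 (1.03% to 1.08%) and day 5 (0.982% to 1.06%) overlapped. On a per-length scale (CPM per kilobase of the principal transcript, averaged over 9 libraries), Atp5b, the catalytic beta subunit of ATP synthase, ranked first at 1061. Atp5g3, one of 3 genes for the c-ring subunit, followed at 567, Cox6c at 347, Atp5d at 343 and Atp5a1, the alpha subunit, at 338. The other c-ring genes were at 325 for Atp5g2 and 11.2 for Atp5g1, whose principal transcript is long (4715 bases).

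The muscle isoforms of complex IV changed most. Cox6a2 was nearly absent in myoblasts and was close to the level of its partner Cox6a1 by day 5. Its level was 0.293, 1.33 and 0.646 CPM at day 0 in the control, Cry1 knockdown and Cry2 knockdown, 74.3, 65.0 and 52.7 CPM at day 3, and 146, 148 and 134 CPM at day 5. All libraries of a later day lay above all of an earlier one, in the order of the days. Cox6a1 was at 196, 178 and 204 CPM at day 0 in the same order, 233, 217 and 253 CPM at day 3 and 146, 145 and 147 CPM at day 5. The day 5 libraries were thus below those of both earlier days. As a share of both genes per kilobase, Cox6a2 was 0.338% ± 0.258 (SD, n = 3 genotypes) at day 0, 18.7% ± 3.33 at day 3 and 45.0% ± 1.49 at day 5. Within single libraries the 95% exact binomial interval of the share at day 5 was 43.1% to 48.1% in the control, 43.7% to 48.6% in the Cry1 knockdown and 40.8% to 45.9% in the Cry2 knockdown. Of the exon bases of Cox6a2, 10.3% overlap Itgad.

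Cox8b followed the same course at a lower level. It had 2 counts in each day 0 library, under the limit of 3, and then 8.06, 14.5 and 14.4 CPM at day 3 and 18.1, 19.1 and 22.9 CPM at day 5 in the control, Cry1 knockdown and Cry2 knockdown. The days did not overlap. Over the 3 genotypes its counts were 6, 203 and 327 at days 0, 3 and 5, a 40.1-fold ratio of day 3 to day 0 (95% exact interval 18.1 to 110, counting error only) and a 65.8-fold ratio of day 5 to day 0 (29.9 to 181). Its share of Cox8b and Cox8a per kilobase was 0.271% ± 0.0148 (SD, n = 3 genotypes), 8.39% ± 2.91 and 19.1% ± 2.97 at the 3 days. The small SD at day 0 reflects the equal counts of 2. Within single day 0 libraries the 95% exact binomial interval was 0.0309% to 0.916% in the control, 0.0332% to 0.983% in the Cry1 knockdown and 0.0344% to 1.02% in the Cry2 knockdown. Cox8a, the widely expressed form, was at 175, 165 and 173 CPM at day 0, 222, 178 and 225 at day 3 and 143, 126 and 123 at day 5, again lowest at day 5.

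Cox7a1 stayed a minor form. Its CPM was 1.32, 0.593 and 1.29 at day 0, 1.68, 2.0 and 2.96 at day 3, and 3.52, 2.65 and 4.35 at day 5 in the control, Cry1 knockdown and Cry2 knockdown. Days 0 and 3 did not overlap, but the lowest day 5 library lay below the highest of day 3. Its share of Cox7a1 and Cox7a2 per kilobase was 2.16% ± 0.884 (SD, n = 3 genotypes), 3.15% ± 0.746 and 6.76% ± 1.34 at the 3 days. These rest on 21, 36 and 57 counts over the 3 libraries of each day.

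**Figure D1:**
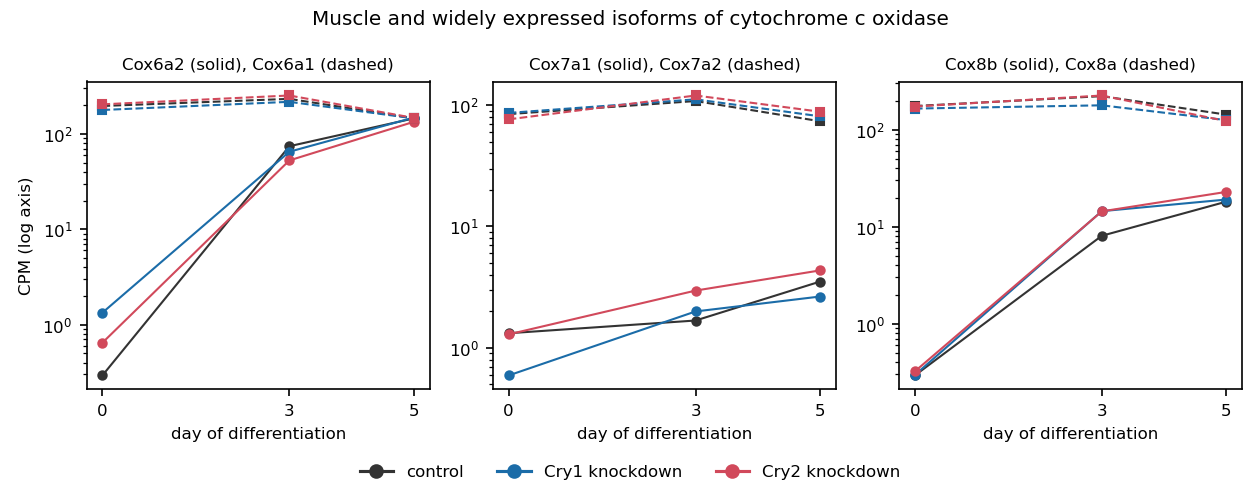
CPM (log axis) of each muscle isoform of complex IV (solid) and its widely expressed partner (dashed) by day of differentiation, 1 point per library, coloured by genotype. Cox6a2 climbs from under 1.34 CPM to 134 to 148 CPM and meets Cox6a1, Cox8b reaches 18.1 to 22.9 CPM, and Cox7a1 stays at or under 4.35 CPM.

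The start-site windows of Cox8b and its partner Cox8a are shown because this pair moved in opposite directions after day 3. Each is 300 bases, 250 before the RefSeq start and 50 from it on, from GRCm38.p6 (mm10), read along the gene's strand: Cox8b at chr7:140900397-140900696 (minus strand) and Cox8a at chr19:7217567-7217866 (minus strand). Capitals mark CAGCTG in Cox8b, an E-box of the kind bound by myogenic factors, and CCGGAAG or its reverse complement in Cox8a, a core of ETS-family sites.
Cox8b: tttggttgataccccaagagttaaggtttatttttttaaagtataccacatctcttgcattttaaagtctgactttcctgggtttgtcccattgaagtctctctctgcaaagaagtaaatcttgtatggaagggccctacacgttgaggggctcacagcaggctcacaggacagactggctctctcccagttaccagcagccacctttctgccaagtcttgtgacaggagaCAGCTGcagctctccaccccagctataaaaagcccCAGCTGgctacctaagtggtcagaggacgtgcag
Cox8a: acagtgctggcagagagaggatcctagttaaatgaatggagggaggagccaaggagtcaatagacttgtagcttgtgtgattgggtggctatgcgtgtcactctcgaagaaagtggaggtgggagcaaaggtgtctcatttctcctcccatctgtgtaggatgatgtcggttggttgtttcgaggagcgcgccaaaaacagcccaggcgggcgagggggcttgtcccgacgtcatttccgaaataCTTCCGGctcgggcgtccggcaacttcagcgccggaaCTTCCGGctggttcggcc
Cox8b held CAGCTG 19 bases before the start and 16 bases after it, and Cox8a held the ETS core 5 bases before and 32 bases after. The windows of the muscle isoform Cox7a1 and its partner Cox7a2, not printed, held 0 of the motifs searched. RefSeq windows were matched for 64 of the 79 genes, with none for Cox6a2 and Cyc1. Both strands were searched, and none of the motifs contains another. A gene was counted if any of its windows held the motif (69 windows for the 64 genes), also among the tested genes. The shares of all 32851 windows are per window, a different unit. CAGCTG was in 9.38% of the 64 genes and in 16.3% of all 32851 promoter windows, and CACGTG, the E-box of clock factors, in 7.81% and 7.15%. CCGGAAG was in 25% and 8.86%, the NRF1 motif GCATGCGC in 15.6% and 2.71%, the estrogen-related receptor motif AAGGTCA in 12.5% and 4.72%, and the YY1 motif AAGATGG in 15.6% and 6.34%. The MEF2 motif was in 0 of the 64 and in 1.86% of all windows. Among the 9490 tested genes with a window, CAGCTG was in 18.2%, CACGTG in 11.9%, CCGGAAG in 20.5%, GCATGCGC in 6.15%, AAGGTCA in 3.67%, AAGATGG in 8.599% and the MEF2 motif in 1.73%.

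From day 0 to day 3 the subunit genes rose nearly throughout. By edgeR's quasi-likelihood test with Benjamini-Hochberg adjustment over 13094 genes, in a fit of genotype and day over the 9 libraries, 70 of 79 rose and 0 fell, against 25.4% of all genes tested that rose and 25.7% that fell. Their median log2 fold change was 0.55, against 0.01 for all genes, and 78 were above 0. With no replicate cultures within a genotype and day, the error is the disagreement between genotypes over days. Within single genotypes the median log2 ratio of day 3 to day 0 was 0.44 in the control (75 of 79 higher), 0.56 in the Cry1 knockdown (78 higher) and 0.69 in the Cry2 knockdown (79 higher). With Cry2-knockdown day 0 left out, 65 rose.

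Complex I rose in 33 of its 36 genes, with a median of 0.60. Ndufa13 rose most, from 66.1, 54.5 and 58.6 CPM at day 0 to 112, 116 and 127 CPM at day 3 in the control, Cry1 knockdown and Cry2 knockdown, and the days did not overlap. The log2 fold change was 0.98 ± 0.10 (SE, edgeR adjusted p = 6.7e-05), though 29.98% of its exon bases overlap Tssk6. Ndufv3 and Ndufb7, accessory subunits, rose by 0.88 ± 0.11 and 0.82 ± 0.11, and Ndufs4, an accessory subunit needed for a stable complex, by 0.68 ± 0.09. The genes that did not pass were Ndufa4 (0.20), Ndufa12 (0.31) and Ndufc2 (0.15).

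All 9 genes of complex III rose, with a median of 0.64. Uqcr11, a small subunit, rose by 0.93 ± 0.12, Uqcrfs1, the Rieske iron-sulfur protein, by 0.62 ± 0.07, and Cyc1, cytochrome c1, by 0.43 ± 0.08. Uqcrc1, a core protein, rose least, by 0.21 ± 0.07 (edgeR adjusted p = 0.043), and its call was lost in 7 of the 9 fits that left out 1 library. In complex II, which also belongs to the citric acid cycle, Sdhb, Sdhc and Sdhd rose by 0.42 ± 0.10, 0.55 ± 0.09 and 0.49 ± 0.08. Sdha, the flavoprotein, was at 273, 253 and 280 CPM at day 0 and 273, 270.2 and 282 CPM at day 3 in the control, Cry1 knockdown and Cry2 knockdown. Its log2 fold change was 0.03 ± 0.08 (edgeR adjusted p = 0.75), and its days overlapped.

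In ATP synthase 14 of 17 genes rose, with a median of 0.50, led by Atp5e, the epsilon subunit, at 0.91 ± 0.11. The alpha and beta subunits of the F1 head did not pass. Atp5b was at 2124, 2010.2 and 2119.9 CPM at day 0 and 2216, 2308 and 2187 CPM at day 3 in the control, Cry1 knockdown and Cry2 knockdown, and the day 3 libraries lay above those of day 0. Its log2 fold change was 0.10 ± 0.09 (edgeR adjusted p = 0.37). Atp5a1 had a log2 fold change of 0.02 ± 0.09 (edgeR adjusted p = 0.84). The c-ring genes Atp5g1, Atp5g2 and Atp5g3 rose by 0.46 ± 0.12, 0.29 ± 0.07 and 0.35 ± 0.07. The longest annotated transcripts of Atp5g1 and Atp5g2 share 11.6% and 14.8% of their 50-base words with other genes, so their counts are less certain. The call of Atp5g1 was lost without the control library of day 0.

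In complex IV 11 of 13 genes rose. Cox6a2 had a fitted log2 fold change of 6.36 ± 0.24 and Cox8b of 5.22 ± 0.31, values that depend on the few counts at day 0. Cox7a1 rose by 1.04 ± 0.36 (edgeR adjusted p = 0.040), a call lost in 7 of the 9 fits that left out 1 library. Among the widely expressed forms, Cox6b1, which holds the complex's dimers together, rose by 0.69 ± 0.08, Cox7a2 by 0.46 ± 0.09, Cox6a1 by 0.28 ± 0.07 and Cox8a by 0.28 ± 0.09. The call of Cox6a1 was lost when the Cry1-knockdown library of day 0 was left out. The call of Cox8a was lost in 4 of those fits, each of which left out a day 0 or day 3 library of the control or the Cry2 knockdown. Cox7a2l and Cox7c did not pass, with values of -0.15 and 0.40.

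**Figure D2:**
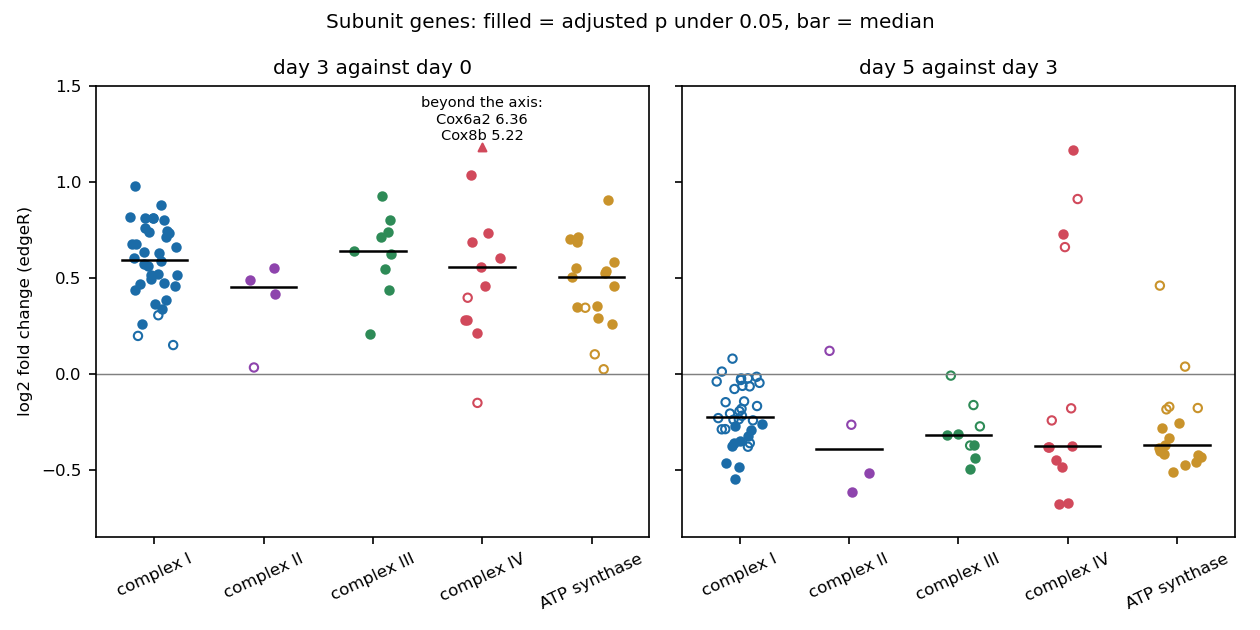
Log2 fold change of each of 79 genes by complex, for day 3 against day 0 (left) and day 5 against day 3 (right). Filled points passed the test, open points did not, bars are medians, and Cox6a2 (6.36) and Cox8b (5.22) lie beyond the left axis. On the left the medians lie between 0.45 and 0.64, and on the right between -0.39 and -0.23.

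Transcript length moved with the day differences in these libraries. Among all tested coding genes the median log2 fold change from day 0 to day 3 was 0.32 for 118 genes with a principal transcript under 600 bases, 0.28 from 600 to 1000 bases, and -0.11 for 7365 genes of 2500 bases or more. Of the subunit genes 48 had a principal transcript under 1000 bases. Their own medians in those bins were 0.68, 0.54 and 0.52, above that of the coding genes in each. After a length trend was removed within each library (an alternative chosen after seeing the data), 57 of 79 rose and 0 fell, with a median of 0.42 and 25.4% of all genes rising. The 13 genes that then no longer passed were Ndufa8, Ndufa10, Ndufs8, Uqcrc1, Cox5a, Cox6a1, Cox7a1, Cox8a, Atp5c1, Atp5d, Atp5g2, Atp5g3 and Atp5s.

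**Figure D3:**
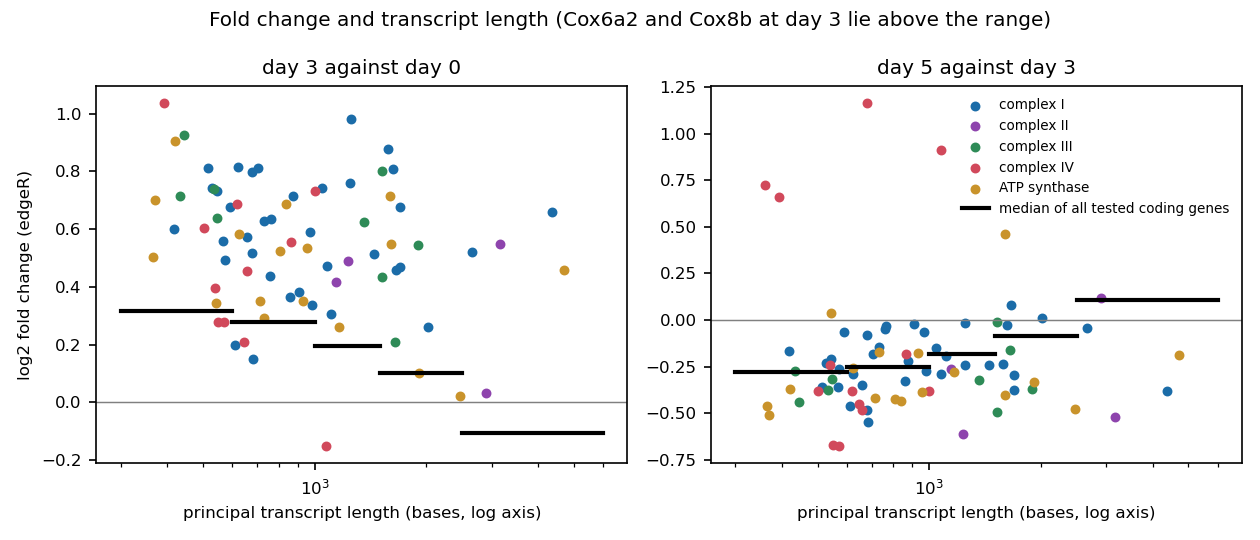
Log2 fold change (edgeR) of each gene against the length of its principal transcript (log axis), for 2 day comparisons and coloured by complex. Black lines are medians of all tested coding genes in 5 length bins. At day 3 most points lie above the lines, which fall from 0.32 to -0.11, and from day 3 to day 5 the points scatter on both sides of lines that climb from -0.28 to 0.11, with bin medians of the 79 genes between -0.32 and -0.19.

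From day 3 to day 5 many subunit genes fell, fewer once transcript length was accounted for, while a pair of muscle isoforms rose. By the same edgeR test 36 of 79 genes fell and 2 rose, against 13.2% and 14.7% of all genes tested, and the median log2 fold change was -0.27 against 0.01 for all genes. Falls were counted in 12 of 17 ATP synthase genes, 10 of 36 in complex I, 2 of 4 in complex II, 5 of 9 in complex III and 7 of 13 in complex IV. The largest were Cox6a1, by 0.68 ± 0.07 on the log2 scale (edgeR adjusted p = 7.2e-04), and Cox8a, by 0.67 ± 0.09. The genes that rose were their muscle partners, Cox6a2 (1.16 ± 0.14, edgeR adjusted p = 9.4e-04) and Cox8b (0.73 ± 0.17, edgeR adjusted p = 0.014). Cox7a1 had a value of 0.66 ± 0.31 and did not pass. The call of Cox8b was lost when either the control or the Cry2 knockdown lost its day 3 or its day 5 library. It was also lost by DESeq2 and in the fit with no genotype term. The log2 ratio of day 5 to day 3 for Cox8b was 1.15 in the control, 0.39 in the Cry1 knockdown and 0.66 in the Cry2 knockdown.

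Other falls touched each complex. Sdhd, a membrane anchor of complex II, was at 139, 162 and 175 CPM at day 3 and 99.2, 104 and 106 CPM at day 5 in the control, Cry1 knockdown and Cry2 knockdown, a fall of 0.61 ± 0.08 on the log2 scale. The days did not overlap. Sdhc, the other anchor, fell by 0.52 ± 0.09, while Sdha and Sdhb had values of 0.12 and -0.27 and did not pass. Atp5a1 fell by 0.48 ± 0.09 and Atp5b by 0.33 ± 0.09. Atp5a1 was at 857, 1014 and 914 CPM at day 3 and 619, 742 and 642 CPM at day 5, without overlap. Ndufc2 fell by 0.55 ± 0.09, Atp5k by 0.51 ± 0.13, Cyc1 by 0.50 ± 0.08 and Cox7a2 by 0.49 ± 0.09. Ndufa4, Uqcrfs1, Cox6b1, Ndufs4 and Atp5g3 fell as well, though the calls of Atp5b and Ndufs4 were lost in 6 of the 9 fits that left out 1 library, that of Atp5k in 4 and that of Uqcrfs1 in 1 (without the Cry1-knockdown library of day 5). Uqcrc1 (-0.16), Atp5g1 (-0.19) and Atp5g2 (-0.17) did not pass.

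The number of genes that fell was smaller with length accounted for and without some single libraries. Under 600 bases the median was -0.32 for the subunit genes and -0.28 for all tested coding genes, and from 600 to 1000 bases -0.27 and -0.25. From 1000 to 1500 bases the medians were -0.25 and -0.18, from 1500 to 2500 bases -0.27 and -0.09, and at 2500 bases or more -0.19 and 0.11. With the length trend removed 13 fell and 2 rose, against 11.3% and 10.9% of all genes, with a median of -0.09. The 13 were Cox6a1, Cox7a2, Cox8a, Sdhc, Sdhd, Cyc1, Uqcrc2, Atp5a1, Atp5o, Ndufa4, Ndufb8, Ndufc2 and Ndufv2. The total that passed in either direction went from 38 to 24 or 22 when the Cry1-knockdown library of day 3 or of day 5 was left out, to 25 without Cry2-knockdown day 3 and to 23 without control day 5.

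Set against day 0, 42 of the 79 subunit genes were higher at day 5. By the edgeR test 42 of 79 genes were higher and 6 lower at day 5, against 28.3% and 27.9% of all genes tested, with a median of 0.28. Complex I held 25 of the genes that were higher and complex III another 6, while complex II had 0 of 4 in either direction (edgeR, and 0 of 4 at an unadjusted p under 0.05). Ndufs5 was 0.72 ± 0.07 higher on the log2 scale, Uqcrq 0.79 ± 0.08 and Ndufa13 0.96 ± 0.10. Atp5s, which encodes coupling factor B and not a structural subunit, was 1.17 ± 0.23 higher, at levels of 5.92 to 9.45 CPM. Cox6a2, Cox8b and Cox7a1 were 7.52 ± 0.23, 5.95 ± 0.29 and 1.70 ± 0.34 higher.

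The 6 genes that were lower at day 5 than at day 0 were Atp5a1 (-0.45 ± 0.09), Ndufc2 (-0.40 ± 0.09), Cox6a1 (-0.40 ± 0.07), Cox8a (-0.39 ± 0.09), Ndufa4 (-0.27 ± 0.08) and Cox5a (-0.24 ± 0.07). Of these, 4 are subunits of complex IV when Ndufa4 is counted there, and 2 of the 4 are the partners of Cox6a2 and Cox8b. Atp5b was at -0.23 ± 0.09 (edgeR adjusted p = 0.051). The call of Ndufa4 was lost without the control library of day 0 or day 5, and that of Cox5a in 4 of the 9 fits that left out 1 library. The calls of Ndufa4 and Cox5a were also lost by DESeq2, and that of Cox5a in the fit with no genotype term. With the length trend removed Atp5b passed (edgeR adjusted p = 0.043), Cox5a did not (edgeR adjusted p = 0.056), and the totals were 45 higher and 6 lower. By their calls in the 3 comparisons, 29 genes rose at day 3 and were still higher at day 5 with no called change between, 18 rose and then fell with no call against day 0, and 11 rose, fell and were still higher. Only Cox6a2 and Cox8b among the 79 passed as higher in all 3 comparisons, and Sdha, Atp5l, Ndufa12, Cox7a2l and Cox7c passed in none.

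Genes that build and control the complexes were read from lists outside the rule. Of 43 assembly factors tested, 22 rose and 2 fell by edgeR from day 0 to day 3, with a median of 0.39, beside the 25.4% and 25.7% of all genes tested. All 4 factors of complex II, Sdhaf1 to Sdhaf4, rose, by 0.39 to 1.03 on the log2 scale, and Higd1a and Higd2a, which assist supercomplexes, rose by 0.95 ± 0.14 and 0.83 ± 0.09. Of 6 subunits or partners that the symbols did not catch, 4 rose, among them Cox4i1, the main isoform of subunit 4 (0.64 ± 0.07). From day 3 to day 5 the assembly factors had 2 rises and 4 falls, beside 14.7% and 13.2% of all genes, and Cox4i1 fell by 0.35 ± 0.07.

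Of 12 transcriptional regulators tested, 2 rose and 3 fell from day 0 to day 3, with a median of -0.07. These counts are small, and 25.4% of all genes rose and 25.7% fell in the same comparison. Esrra, the estrogen-related receptor alpha, rose by 0.25 ± 0.08 and Tfb2m, a mitochondrial transcription factor, by 1.31 ± 0.33. Nrf1, nuclear respiratory factor 1, fell by 0.64 ± 0.12, Gabpb1 by 0.47 ± 0.17 and Pprc1, a coactivator related to PGC-1, by 0.81 ± 0.10. Ppargc1a, which encodes PGC-1 alpha, was at 0.646 to 2.54 CPM over the 9 libraries and did not pass (1.00 ± 0.45, edgeR adjusted p = 0.092). Of the 12 mitochondrially encoded genes tested, 7 rose from day 0 to day 3 and 1, mt-Atp8, fell. From day 3 to day 5 edgeR called 2 of the 12 higher, mt-Nd4 and mt-Cytb, and 0 lower, beside 14.7% and 13.2% of all genes tested. mt-Cytb, the cytochrome b of complex III, rose by 1.14 ± 0.15 from day 0 to day 3 and by a further 0.48 ± 0.15 from day 3 to day 5. The fall of mt-Atp8 rests on the Cry2 knockdown library of day 0, with 678 counts there and 4 to 12 in the others.

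Few of these genes passed in the comparisons between genotypes. For Cry2 knockdown against control over the 3 days, edgeR called 0 of 79 genes, against 0.0458% of all genes higher and 0.0382% lower. At an unadjusted p under 0.05 there were 6, beside 1604 of the 13094 genes, and DESeq2 called 0 after adjustment. Of all 13094 genes tested 6525 were above 0, and of the 79 genes 66, with a median of 0.08. That median was 0.14 without the control library of day 0 (20 genes at an unadjusted p under 0.05), 0.13 without Cry2-knockdown day 0, 0.05 without the control library of day 3 or of day 5, and 0.03 with the length trend removed, where 53 genes were above 0. The lowest p was for Atp5g1, 0.58 ± 0.12 (edgeR adjusted p = 0.14), followed by Cyc1 at -0.28 ± 0.08 (0.23), Ndufb4 at 0.42 ± 0.13 (0.25) and Atp5s at 0.61 ± 0.23 (0.33). Atp5g1 did pass in the fit with no filter on low counts (edgeR adjusted p = 0.0089).

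For Cry1 knockdown against control edgeR also called 0 of 79, against 0.932% of all genes higher and 1.73% lower, with 5 at an unadjusted p under 0.05 beside 2492 of the 13094 genes, 0 by DESeq2 and a median of 0.00100. The lowest p was for Ndufs8, a core iron-sulfur subunit of complex I, at 0.31 ± 0.08 (edgeR adjusted p = 0.088), followed by Sdhc at 0.29 ± 0.09 (0.11), Uqcrc2 at 0.23 ± 0.07 (0.14) and Ndufb4 at 0.38 ± 0.13 (0.15).

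Between the knockdowns 3 genes passed, 1 higher and 2 lower in the Cry2 than in the Cry1 knockdown, against 4.24% and 3.69% of all genes tested. Cyc1, on days 0, 3 and 5, had 157, 238 and 155 CPM with Cry2 knocked down, 224, 296 and 225 CPM with Cry1 knocked down and 210.1, 261 and 188 CPM in the control. On every day the Cry2 knockdown was lowest and the Cry1 knockdown highest, and the difference was -0.45 ± 0.08 (SE, edgeR adjusted p = 0.015). Ndufs8 had 65.7, 80.2 and 69.5 CPM with Cry2 knocked down, 78.7, 106 and 90.05 CPM with Cry1 knocked down and 69.8, 85.7 and 65.7 CPM in the control, a difference of -0.34 ± 0.08 (edgeR adjusted p = 0.037). The Cry1 knockdown was highest on each day. Atp5g1 had 61.9, 72.2 and 67.3 CPM with Cry2 knocked down, 38.5, 48.9 and 49.3 CPM with Cry1 knocked down and 34.0, 59.8 and 43.7 CPM in the control, a difference of 0.57 ± 0.12 (edgeR adjusted p = 0.025). The Cry2 knockdown was highest on each day. Each of these calls was lost in some of the 9 fits that left out 1 library, and the number that passed was 0 when Cry1-knockdown day 3, Cry1-knockdown day 5, Cry2-knockdown day 0 or Cry2-knockdown day 5 was left out, 1 when Cry1-knockdown day 0 was left out and 2 without Cry2-knockdown day 3.

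**Figure D4:**
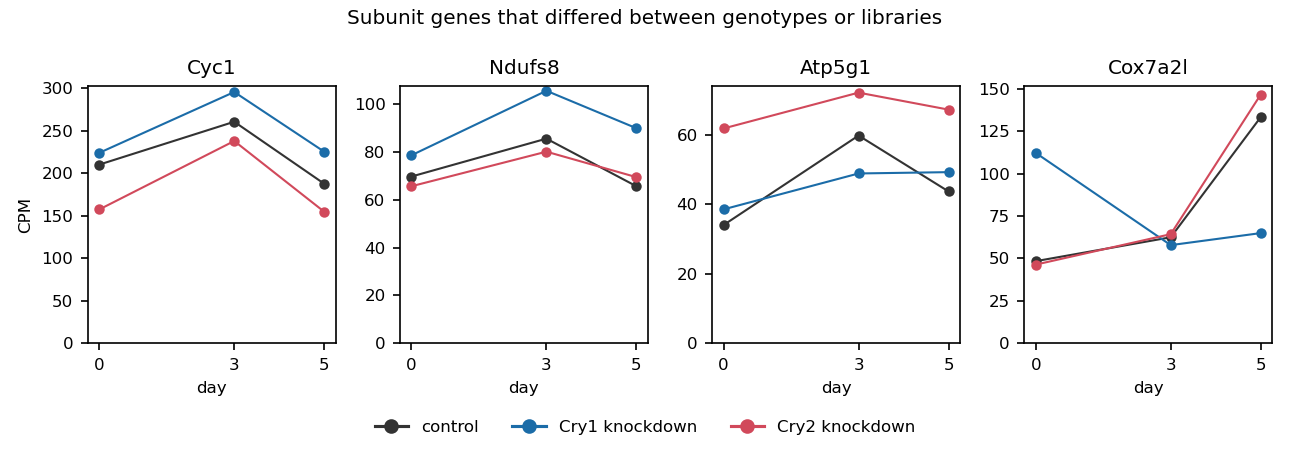
CPM (linear axis from 0) of Cyc1, Ndufs8, Atp5g1 and Cox7a2l by day, 1 point per library, coloured by genotype. The Cry2 knockdown is lowest for Cyc1 and highest for Atp5g1 on each day, and Cox7a2l is high in the Cry1 knockdown at day 0 (112 CPM) and at day 5 in the control (133 CPM) and the Cry2 knockdown (147 CPM).

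Whether differentiation changed the subunit genes differently in the knockdowns was asked by the interaction of genotype with stage, day 0 against days 3 and 5, over 13608 genes. For the Cry1 knockdown edgeR called 0 of 79, against 0% of all genes higher and 0% lower, with 8 at an unadjusted p under 0.05 beside 670 of the 13608 genes, and 0 by DESeq2. Of all 13608 genes 6361 had a response above that of the control, with a median difference of -0.02. For the subunit genes it was 61 of 79, with a median difference of 0.13, which became 0.07 with the length trend removed. The lowest p was for Cox7a2l, at -1.78 ± 0.40 (edgeR adjusted p = 0.62), followed by Cox7c (0.80 ± 0.23), Uqcr11 (0.54 ± 0.17) and Ndufv3 (0.52 ± 0.16). Cox7a2l passed in the fit with no filter on low counts (edgeR adjusted p = 0.0038) and without the day 3 library of the control (edgeR adjusted p = 0.0064), and 17.7% of its 50-base words are shared with other genes. For Cox7c that share is 27.9%.

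For the Cry2 knockdown edgeR called 0 of 79, against 0.00735% of all genes higher and 0.0294% lower, with 11 at an unadjusted p under 0.05 beside 818 of the 13608 genes, and 0 by DESeq2. Of all 13608 genes 6868 had a response above that of the control, with a median difference of 0.004. For the subunit genes it was 71 of 79, with a median difference of 0.20, which became 0.10 with the length trend removed. The responses of both knockdowns were set against the same control libraries. The lowest p was for Cox7c (1.04 ± 0.24, edgeR adjusted p = 0.61), followed by Atp5l (1.25 ± 0.32), Atp5k (0.63 ± 0.17) and Uqcr11 (0.56 ± 0.17). Atp5l passed without the day 5 library of the control (edgeR adjusted p = 0.041). Within days the median log2 ratio of the Cry2 knockdown to the control was -0.03 at day 0 (28 of 79 genes higher), 0.15 at day 3 (71 higher) and 0.15 at day 5 (67 higher). For the Cry1 knockdown it was -0.06, 0.05 and 0.06, with 25, 54 and 55 genes higher. Of all genes tested 48.4%, 49.9% and 52.4% were higher in the Cry2 knockdown on those days, and 53.9%, 48.3% and 52.8% in the Cry1 knockdown. Both rows of ratios use the same 3 control libraries and have no replicate.

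**Figure D5:**
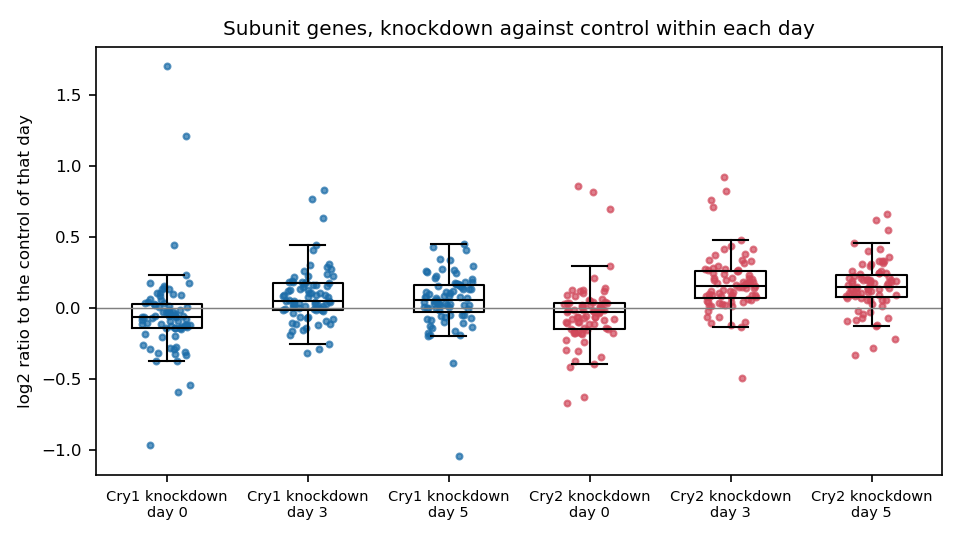
Log2 ratio of each of 79 genes to the control library of the same day, for the Cry1 (blue) and Cry2 (red) knockdowns, 1 point per gene, with boxes for the quartiles, a line at the median and whiskers to the farthest gene within 1.5 box lengths. The median of the Cry2 knockdown is -0.03 at day 0 and 0.15 at days 3 and 5, and single genes spread far beyond these medians.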

How the data were processed

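PolyA RNA libraries were made with a TruSeq RNA v2 kit, per the labels' protocols, which does not keep strand, so antisense and overlapping genes cannot be separated. The deposited values are raw counts per gene made by the authors with HISAT2 2.0.2 (mm10), Subread's featureCounts 1.4.6 and CASAVA 1.8, per the submitters' processing notes. The treatment of multi-mapping reads is not given in the sources used here.

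Symbols, gene types and lengths came from GENCODE M21 (47309 of 47728 IDs matched). Tests were edgeR quasi-likelihood F tests on TMM-scaled counts after filterByExpr (R 4.3.3, edgeR 4.0.16, limma 3.58.1), with Benjamini-Hochberg adjusted p under 0.05 over all genes. The fit of genotype and day had 4 residual degrees of freedom, and the genotype by stage fit, in which day 5 against day 3 was shared, had 2. Standard errors are log2 fold changes over the root of F. Within-day ratios used a prior count of 1. P-values measure the spread between single libraries, which may be technical. Intervals cover counting error only.

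Alternatives were DESeq2 1.42.0 and its size factors, other filters, other terms, fewer libraries, each library left out and, added after seeing the data, a length trend removed. The fits were also run on counts simulated from their own dispersions, with known effects on the tested term. That run cannot show how the fits behave where single libraries depart from the model. Member genes and lists were chosen with earlier results of these data known. Genes always named were the complex IV isoforms, Cox6b1, Cox7a2l, Ndufa4, Ndufs4, Sdha, Sdhb, Cyc1, Uqcrc1, Uqcrfs1 and the alpha, beta and c-ring genes. Beyond these, the 8 largest rises and falls were named per comparison, all if 12 or fewer passed, or the 4 of lowest p if none did. A gene that this rule names is not reported here. Other genes were named after their values were seen. Python 3.11.15 with numpy 2.4.6, pandas 2.3.3, scipy 1.17.1 and matplotlib 3.10.9 did the remaining work.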

Additional observations from a re-analysis of the deposited data

Results flagged for a closer look

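Within single genotypes, 2 genes moved by at least 0.5 on the log2 scale in opposite directions under the same contrast. Cox7a2l, the supercomplex assembly factor, had a log2 ratio of day 5 to day 0 of 1.46 in the control and 1.66 in the Cry2 knockdown but -0.79 in the Cry1 knockdown. Its counts were 330, 372 and 721 at days 0, 3 and 5 in the control, 758, 348 and 368 with Cry1 knocked down and 287, 304 and 777 with Cry2 knocked down. The interaction with stage was not called (edgeR adjusted p = 0.62), and the day 5 contrast alone was not tested between genotypes.

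Atp5l, the g subunit of ATP synthase, had a log2 ratio of day 3 to day 0 of -0.53 in the control, 0.56 in the Cry1 knockdown and 1.02 in the Cry2 knockdown. It had 72 to 128 counts per library. The Cry2 interaction was not called (edgeR adjusted p = 0.73), and the day 3 contrast alone was not tested between genotypes. Each value rests on 1 library per genotype and day.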

How the results depend on the processing

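The rises at day 3 passed in 61 of 70 genes in all 9 fits that left out 1 library, and their number ran from 65 to 69. From day 3 to day 5 it was 19 of 38 genes, with totals of 22 to 43, and from day 0 to day 5 it was 38 of 48, with totals of 42 to 49. Between the knockdowns it was 0 of 3, with totals of 0 to 3, and the total was also 0 without the day term. For Cry2 knockdown against control 1 gene passed with no filter on low counts. For the Cry1 response 1 passed with no filter and 0 to 1 when a library was left out, and for the Cry2 response 0 to 1. With the length trend removed 15 genes passed from day 3 to day 5, and DESeq2 called 63, 27 and 39 genes in the 3 day comparisons. The cause of these changes was not tested. No named gene that passed changed sign under these alternatives, while the untested median for Cry1 knockdown against control, 0.00100, ran from -0.02 to 0.06. The response of a knockdown could not be estimated without its own day 0 library or that of the control. Without the day 0 library of the other knockdown, 0 of 79 passed for either response, with medians of 0.12 for Cry1 and 0.20 for Cry2 (edgeR, 7 and 11 at an unadjusted p under 0.05). Libraries could not be paired by replicate because there is 1 library per genotype and day and the labels give no replicate numbers. The fit already compares days within genotypes and genotypes within days, since genotype and day act as blocks in it. Low counts limit Cox7a1, Cox8b and Cox6a2 at day 0 most.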
